A study of Homo sapiens with 4 samples.

Results

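The heme synthesis enzymes described here are the products of 8 genes, ALAS1, ALAS2, ALAD, UROS, UROD, CPOX, PPOX and FECH. They were taken as a named list and matched by symbol to the gene tables, in which each symbol had 1 gene ID, so that 8 of the 61498 annotated genes were followed. RNA was sequenced from K562, a human erythroleukemia line that makes fetal and embryonic globins and can be moved toward the erythroid state by chemical inducers. The groups were 2 libraries of untreated cells and 2 libraries of cells kept for 108 h with 50 µM hemin, the oxidised, chloride-bound form of heme. All 4 libraries came from the same line grown in the same medium. The study asked whether hemin-induced differentiation changes the contacts of ribosomal RNA gene clusters with other chromosomes, and compared gene expression beside them. Only the expression data are used here. Nothing in the labels says whether the 2 libraries of a group came from separate cultures, so the p-values measure only the spread between these libraries, which may be technical.

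Heme is built from glycine and succinyl-CoA by a chain of enzymes that starts and ends in the mitochondrion. The first and usually rate-limiting step, the making of 5-aminolevulinate, is carried out by ALAS1 in most tissues and by ALAS2 in erythroid cells, and ALAD joins the product into porphobilinogen in the cytosol. UROS later closes the porphyrin ring, UROD and CPOX trim its side chains, PPOX oxidises it and FECH inserts iron. Heme is known to feed back on ALAS1, whereas the translation of ALAS2 is known to depend on iron through an element at the start of its mRNA.

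The expected counts, which are the read numbers RSEM estimated for each gene, summed to between 7455447 and 8241534 per library, and 12.8% to 13.6% of them were mitochondrial. After the filter on low counts 14458 genes were tested, and all 8 enzyme genes were among them. The erythroid marker list was detected in full (9 of 9). Its summed counts, not scaled for depth, were 22016 and 22053 in the untreated and 26495 and 27584 in the hemin-treated libraries. Scaled for depth and length (TPM), the sums were 5485 and 5712 against 7033 and 6578. Within the list, GATA1 overlapped between the groups (113 and 120 against 121 and 114 TPM), whereas KLF1 did not (35.1 and 35.3 against 41.3 and 39.7 TPM). KLF1 was not called higher at the threshold used below. The 5 megakaryocytic markers summed to 63 counts in both untreated libraries and to 49 and 32 after hemin, with GP9 and PF4 at 0 in every library. The 4 monocytic markers summed to 11 to 19 counts and the 4 lymphoid markers to 2 to 14 counts, with CD3E, MS4A1 and CD2 at 0. The part that the erythroid and megakaryocytic marker shifts have in the results on the enzymes was not tested. In such bulk samples, fewer cells of a type and less RNA per cell cannot be told apart.

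The sequences shown first are those of the 2 enzymes of the first step, because only these passed the threshold used below (adjusted p under 0.05). A second method, DESeq2, did not call ALAS2 (DESeq2 adjusted p = 0.0647). In all, 7 of the 8 enzymes had a negative log2 fold change. The estimated falls of FECH (15.2%) and PPOX (16.2%) were close to that of ALAS2 (16.0%). RefSeq promoter windows (GRCh38.p14, 250 bases that end at the base before the transcription start) were matched for 7 of the 8 genes, with 9 windows in all. The window of ALAS1 is chr3:52197833-52198082 on the plus strand, and that of ALAS2 is chrX:55030978-55031227 on the minus strand. Capitals mark the matches found in the ALAS2 window.
ALAS1: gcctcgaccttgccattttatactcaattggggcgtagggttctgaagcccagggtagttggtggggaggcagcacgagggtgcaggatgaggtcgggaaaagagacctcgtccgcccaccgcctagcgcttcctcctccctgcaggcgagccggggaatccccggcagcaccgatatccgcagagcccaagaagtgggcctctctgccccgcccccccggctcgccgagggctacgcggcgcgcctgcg
ALAS2: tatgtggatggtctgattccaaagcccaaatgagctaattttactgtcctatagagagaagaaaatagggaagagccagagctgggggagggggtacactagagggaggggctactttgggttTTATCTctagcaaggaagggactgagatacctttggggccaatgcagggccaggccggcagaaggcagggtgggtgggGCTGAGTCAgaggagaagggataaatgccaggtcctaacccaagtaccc
Motifs were searched on both strands, except TATAAA, which was searched on the strand of the gene alone. The first capital stretch of ALAS2 lies 127 to 122 bases before the start and is a motif of GATA factors, AGATAA, read on the other strand. This motif, searched with A or T as its first letter (also TGATAA), was found in 14.6% of the 35116 windows of this length in the table. The second capital stretch of ALAS2 holds TGACTCA (the core of the NFE2 motif, in 4.20% of all windows) 47 to 41 bases before the start, overlapped by TGACNNNGC (the antioxidant response element, in 10.9%) at 49 to 41 bases, both on the other strand. The ALAS1 window held neither of these, nor CCACNCCC (the KLF motif, in 15.7% of all windows), GCATGCGC (the NRF1 motif, in 2.63%) or TATAAA (in 6.80%). Its GC content was 67.2%, against 52.8% for ALAS2 and a median of 58.0% over all windows. Among the other enzymes, the CPOX window held AGATAA at 2 places, and the overlapping ALAD windows both held the same genomic CCACNCCC match. The FECH window held TGACNNNGC, and of the 2 PPOX windows 1 held AGATAA and, at 2 places, CCACNCCC. The UROD window held none of the motifs searched. These matches describe letters only.

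The ALAS2 transcript carries near its start the stem-loop known as the iron-responsive element, which iron regulatory proteins bind. It is shown because the pathway lists below include the genes that sense iron. Its loop letters are in capitals and are bases 21 to 26 of the transcript, and the stretch (bases 13 to 34) lies at chrX:55030944-55030965 on the minus strand of GRCh38.p14.
ALAS2 iron-responsive element: ttcgtcctCAGTGCagggcaac
The loop letters CAGTGC were in the first 50 bases of 1.69% of all starts in the table, and in none of the 8 windows of the other matched enzymes.

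By TPM (the share of transcripts per library, scaled by transcript length, which allows genes to be compared), UROD was the highest of the enzymes in both groups and supplied 45.7% and 47.1% of the summed enzyme TPM in the untreated libraries and 51.8% and 53.7% in the hemin-treated ones. Its level was 276 ± 12.9 TPM without hemin and 298 ± 13.8 TPM with it (SD, n = 2 in each group, as for every mean in this paragraph). ALAS2 came next, at 90.2 ± 11.9 and 77.5 ± 6.75 TPM, followed by FECH at 71.2 ± 8.27 and 57.8 ± 3.46 TPM. CPOX was at 51.6 ± 2.50 and 41.5 ± 4.95 TPM, UROS at 38.3 ± 5.18 and 37.8 ± 0.969 TPM, and PPOX at 33.9 ± 1.84 and 27.4 ± 5.73 TPM. The lowest were ALAS1, at 19.8 ± 0.184 and 10.9 ± 0.502 TPM, and ALAD, at 14.05 ± 1.53 and 13.6 ± 1.12 TPM. The order was the same in both groups down to PPOX, and ALAS1 stood above ALAD without hemin and below it with hemin. Neighbours in this order did not overlap between their libraries, except UROS and PPOX without hemin, and CPOX and UROS with hemin.

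**Figure D1:**
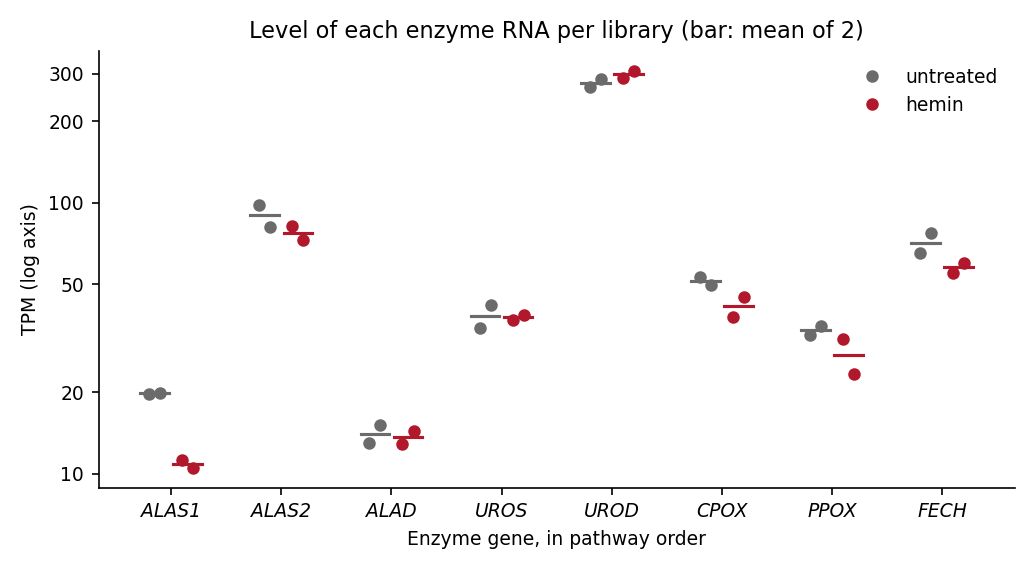
Level of each enzyme RNA in TPM on a log axis, with the genes in pathway order along the horizontal axis, grey points for the 2 untreated and red points for the 2 hemin-treated libraries, and bars for the means. UROD stands highest at 276 TPM without and 298 TPM with hemin, and the ALAS1 points go from about 19.8 to 10.9 TPM.

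The comparison of hemin-treated with untreated cells asked which enzyme RNAs changed. ALAS1 fell by 39.9% and ALAS2 fell by 16.0%, and these were the 2 enzymes past the threshold, which was an adjusted p of 0.05 by the quasi-likelihood method of edgeR, adjusted over all genes tested by Benjamini-Hochberg. None of the 8 was called higher. Over all genes tested, 7.14% were called lower and 7.00% higher. At an unadjusted p under 0.05 there were 4 enzymes, ALAS1, ALAS2 and FECH lower and UROD higher, where 14.6% of all genes tested were lower and 14.8% higher at that level. DESeq2 called 1 enzyme lower and none higher. The log2 fold change (hemin over untreated) was negative for 7 enzymes and positive for UROD, with a median of -0.20 against -0.0048 over all genes tested, of which 7101 were positive and 7357 negative.

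ALAS1 (ENSG00000023330, chr3:52198086-52214327 of GRCh38, plus strand), the first enzyme in most tissues, had 211 and 219 expected counts in the untreated libraries and 129 and 131 in the hemin-treated ones. Both hemin-treated libraries were below both untreated ones, by far more than the libraries of a group differed. The log2 fold change was -0.73 (SE 0.106, 95% interval -0.97 to -0.49, edgeR adjusted p = 0.00296). Its exons share no base with those of another annotated gene, and RSEM assigned its reads with no uncertainty (posterior SD 0). The call held in 12 of 14 alternative analyses and with any 1 library left out, and was lost with limma on log2(TPM + 1) (-0.81, limma adjusted p = 0.0809) and on log2(TPM + 0.1) (-0.86, limma adjusted p = 0.0812).

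ALAS2 (ENSG00000158578, chrX:55009055-55030977, minus strand), the erythroid form of the same enzyme, had 848 and 809 counts without hemin and 705 and 694 with it. Scaled by library size and TMM factors (TMM CPM), these were 107 and 108 against 95.1 and 86.0, so that the groups did not overlap. The log2 fold change was -0.25 (SE 0.0607, 95% interval -0.39 to -0.11, edgeR adjusted p = 0.0252). In TPM the groups overlapped, with 98.6 and 81.8 against 82.3 and 72.7, and the effective length that RSEM gave the gene ran from 1533 to 1828 bases among libraries. The exons share 3 bases with APEX2 on the opposite strand. The call was lost with DESeq2 (-0.25, DESeq2 adjusted p = 0.0647) and without untreated replicate 1 (-0.26, edgeR adjusted p = 0.0894), untreated replicate 2 (-0.24, edgeR adjusted p = 0.103) or hemin replicate 2 (-0.18, edgeR adjusted p = 0.147), and held without hemin replicate 1 (-0.32, edgeR adjusted p = 0.00789). It was also lost with limma on log2(TPM + 1) (-0.21, limma adjusted p = 0.380).

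The balance of the 2 forms was compared as a ratio of levels. The ratio of ALAS2 to ALAS1 in TPM was 5.01 and 4.10 in the untreated libraries and 7.33 and 6.92 in the hemin-treated ones, with no overlap. On the log2 scale the means were 2.18 ± 0.204 and 2.83 ± 0.0591 (SD, n = 2 each), a difference of 0.65, or 1.57-fold. An exact two-sided permutation test over the 4 libraries gave p = 0.333, which is the smallest value this design allows. TPM is scaled by effective length, which ran from 1909 to 2130 bases for ALAS1 and from 1533 to 1828 for ALAS2 among libraries. In the count fit, which uses no lengths, the log2 fold changes of -0.73 (ALAS1) and -0.25 (ALAS2) lay closer together than 0.65. The part that length has in this was not tested. ALAS1 made up 16.7% and 19.6% of the summed TPM of the 2 forms without hemin and 12.0% and 12.6% with it. That sum was 118 and 102 TPM without hemin and 93.5 and 83.2 TPM with it.

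**Figure D2:**
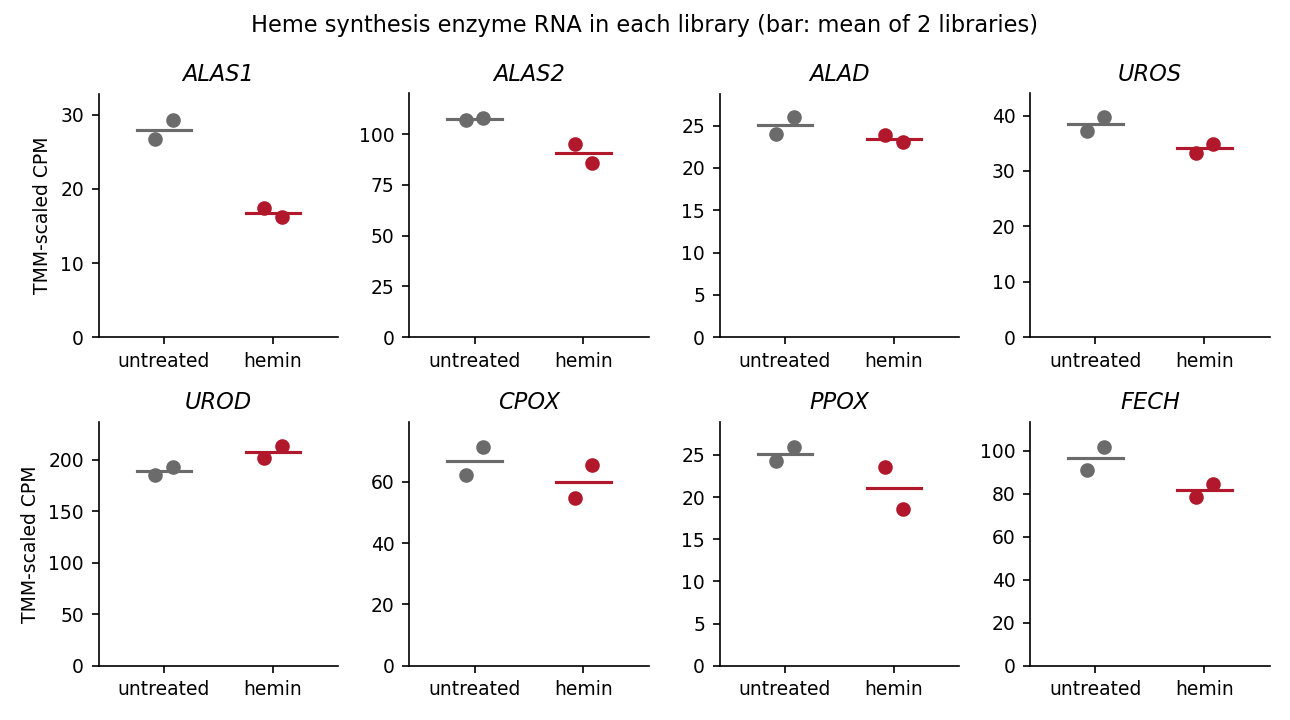
TMM-scaled CPM of each enzyme RNA in each library, with 1 panel per gene, vertical axes that start at 0, grey for untreated and red for hemin-treated cells, and bars for the means of 2 libraries. The ALAS1 points lie at 26.7 and 29.2 without and 17.4 and 16.2 with hemin, whereas the CPOX points of the 2 groups overlap.

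FECH (ENSG00000066926, chr18:57544377-57586732, minus strand), which inserts iron into the ring in the last step, had 721 and 764 counts without hemin and 584 and 684 with it. In TMM CPM these were 91.2 and 102 against 78.7 and 84.8, which do not overlap. The log2 fold change was -0.24 (SE 0.0700, 95% interval -0.39 to -0.08, edgeR adjusted p = 0.0517), just short of the threshold. It passed in 7 of 14 alternatives, among them the fit without untreated replicate 1 (-0.32, edgeR adjusted p = 0.0413) and the fit without hemin replicate 2 (-0.29, edgeR adjusted p = 0.0354). It was smaller and not called without untreated replicate 2 (-0.15, edgeR adjusted p = 0.264) or hemin replicate 1 (-0.18, edgeR adjusted p = 0.187).

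UROD (ENSG00000126088, chr1:45010950-45015575, plus strand), which removes carboxyl groups from uroporphyrinogen, was the enzyme with a positive value. It had 1462 and 1444 counts without hemin and 1495 and 1724 with it, or 185 and 193 against 202 and 214 TMM CPM, with no overlap. The log2 fold change of 0.14 (SE 0.0481, 95% interval 0.03 to 0.25) had an edgeR adjusted p of 0.0875. It passed the threshold in 1 of 14 alternatives, with no filter on low counts (0.15, edgeR adjusted p = 0.0491). The ratio of UROD to ALAS1 in TPM was 13.6 and 14.3 without hemin and 25.7 and 29.3 with it. The UROD exons share 375 of 4029 bases with HECTD3 on the opposite strand, and the options the authors list for RSEM set no strand.

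The other enzymes were not past the threshold in any of the 14 alternatives. ALAD (ENSG00000148218, chr9:113386312-113401290, minus strand) had 190 and 195 counts without hemin and 177 and 186 with it, and a log2 fold change of -0.09 (95% interval -0.31 to 0.13, edgeR adjusted p = 0.597). It was -0.15 without untreated replicate 1 and -0.03 without untreated replicate 2. UROS (ENSG00000188690, chr10:125784980-125823258, minus strand), which closes the ring, had 294 and 297 counts against 247 and 281, and a value of -0.17 (95% interval -0.36 to 0.01, edgeR adjusted p = 0.205). For both, the TMM CPM of the groups did not overlap while the TPM did, and their effective lengths differed up to 1.20-fold (ALAD) and 1.23-fold (UROS) between libraries. CPOX (ENSG00000080819, chr3:98579446-98593648, minus strand), the coproporphyrinogen oxidase, had 492 and 535 counts against 406 and 527, and a value of -0.15 (95% interval -0.37 to 0.07, edgeR adjusted p = 0.352). The CPOX value was -0.25 without untreated replicate 1, -0.04 without untreated replicate 2, -0.02 without hemin replicate 1 and -0.29 without hemin replicate 2. Here it was the TPM that did not overlap, at 53.3 and 49.8 against 38.0 and 45.0, with an effective length that differed up to 1.21-fold, and 163 of its 3157 exon bases are shared with a gene on the same strand, ENSG00000285635. PPOX (ENSG00000143224, chr1:161166056-161178013, plus strand), the protoporphyrinogen oxidase, had 192 and 194 counts against 175 and 150, and a value of -0.25 (95% interval -0.54 to 0.03, edgeR adjusted p = 0.212). Its SE was 0.125, and the value moved to -0.09 (edgeR adjusted p = 0.764) without hemin replicate 2 and to -0.42 (edgeR adjusted p = 0.0550) without hemin replicate 1. PPOX shares 1118 of its 4725 exon bases with B4GALT3 on the opposite strand, and its posterior SD reached 1.43% of the count, the highest of the 8.

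In TMM CPM the groups did not overlap for 7 of the 8 enzymes, 6 lower after hemin and UROD higher. Over all genes tested, 29.3% did not overlap and were lower, and 28.1% did not overlap and were higher. The summed TPM of the 8 enzymes was 595 ± 15.5 without hemin and 564 ± 11.3 with it (SD, n = 2 each).

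**Figure D3:**
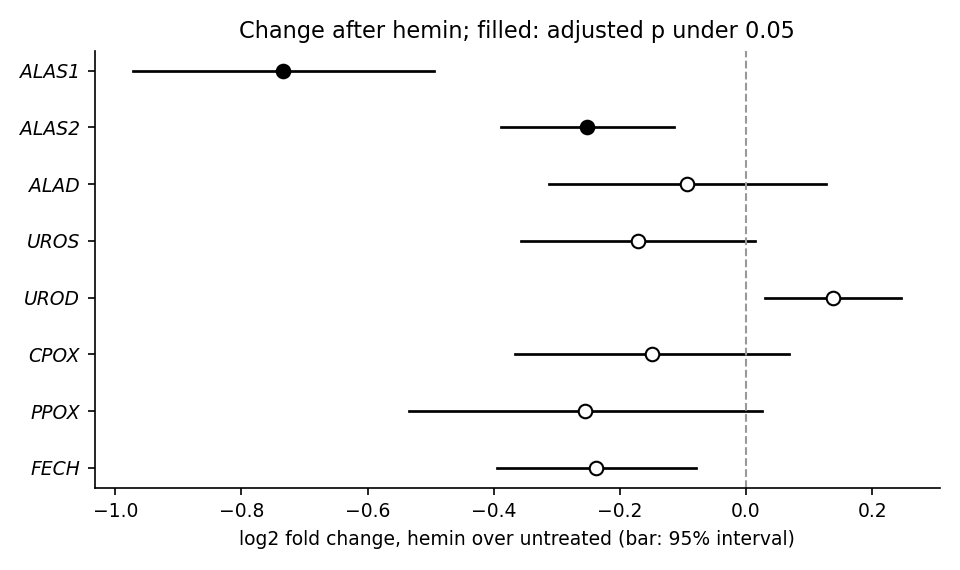
Log2 fold change (hemin over untreated, horizontal axis) of each of the 8 enzymes with its 95% interval as a bar, and filled points for an adjusted p under 0.05. ALAS1 stands apart at -0.73, ALAS2 is filled at -0.25, and UROD is the 1 point to the right of 0, at 0.14.

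The other genes of the pathway were taken from 8 lists with 72 genes, of which 69 were tested. Of these 6 were called higher, 6 lower and 57 were not called, with 35 positive and 34 negative values and a median log2 fold change of 0.000789. Their shares called (8.70% in each direction) stood beside 7.00% and 7.14% over all genes tested. Under DESeq2 there were 3 higher (LMO2, TFRC and HSPD1) and 3 lower (NFE2L1, ABCG2 and BLVRB). DESeq2 did not call the other list genes that are given below as called.

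Among the 16 transcription factors that act on the ALAS genes or with GATA1, 15 were tested, 3 were called higher and 2 lower, and the median was 0.05. LMO2, a bridging partner of GATA1 and TAL1, rose by 0.38 (SE 0.0724, edgeR adjusted p = 0.00975), PPARGC1B, a coactivator related to the one known to act on ALAS1, rose by 0.33 (SE 0.0779, edgeR adjusted p = 0.0234), and BACH1, a repressor that heme releases from DNA, rose by 0.21 (SE 0.0577, edgeR adjusted p = 0.0414), all on the log2 scale. NFE2, the erythroid factor that binds TGACTCA, fell by 0.31 (SE 0.0684, edgeR adjusted p = 0.0185), from 547 and 566 counts to 438 and 467. NFE2L1, a relative of NFE2, fell by 0.26 (SE 0.0524, edgeR adjusted p = 0.0128). None of these calls held with every library left out in turn. LMO2 was lost without untreated replicate 1 (edgeR adjusted p = 0.0579), NFE2 without untreated replicate 2 (edgeR adjusted p = 0.106) or hemin replicate 2 (0.0540), and NFE2L1 without untreated replicate 1 (edgeR adjusted p = 0.0744) or hemin replicate 2 (0.0525). PPARGC1B was lost without untreated replicate 2 (edgeR adjusted p = 0.120) or hemin replicate 2 (0.0943), and BACH1 without any 1 of the 4 (edgeR adjusted p = 0.0904 to 0.171).

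Of the 4 genes of iron sensing and uptake, ACO1, IREB2 and FBXL5 were not called. TFRC, the transferrin receptor, which serves iron uptake, was called. It had 4595 and 4541 counts without hemin and 5116 and 5680 with it, rose by 0.23 on the log2 scale (SE 0.0405, edgeR adjusted p = 0.00670), and was called with any 1 library left out. FBXL5, the iron-dependent ligase adaptor for IRP2, had the lowest value of the 4 (-0.29, edgeR adjusted p = 0.0905). Of the 5 genes of ALAS folding and turnover, HSPD1, a mitochondrial chaperonin, rose by 0.18 (SE 0.0423, edgeR adjusted p = 0.0212, and 0.108 without untreated replicate 1), and CLPX, the unfoldase known to act on ALAS, had the lowest value at -0.04 (edgeR adjusted p = 0.741, and 0.00122 on the log2 scale without untreated replicate 2). None of the 9 genes that supply glycine and succinyl-CoA was called, and they ran from SHMT1 at -0.24 (edgeR adjusted p = 0.136) to SUCLA2 at 0.14 (edgeR adjusted p = 0.289).

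Among the 12 genes of porphyrin and iron transport and partners of FECH, 2 were called lower, and the median was -0.08. ABCG2, an exporter of porphyrins at the cell surface, had 68 and 66 counts without hemin and 26 and 25 with it, a log2 fold change of -1.40 (SE 0.222, edgeR adjusted p = 0.00450) that was called with any 1 library left out. TSPO, an outer mitochondrial membrane protein that binds porphyrins, fell by 0.48 (SE 0.104, edgeR adjusted p = 0.0163), a call lost without untreated replicate 1 (edgeR adjusted p = 0.0955) or hemin replicate 2 (0.0677). ABCB10, an inner membrane transporter, had the highest value at 0.15 (edgeR adjusted p = 0.171).

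FECH carries an iron-sulphur cluster, and of the 15 genes of cluster assembly 1 was called in each direction. IBA57, a late-acting factor, rose by 0.56 (SE 0.143, edgeR adjusted p = 0.0306), and ISCU, the scaffold, fell by 0.32 (SE 0.0835, edgeR adjusted p = 0.0335). IBA57 was lost without untreated replicate 1 (edgeR adjusted p = 0.0938), untreated replicate 2 (0.111) or hemin replicate 1 (0.132), and ISCU without untreated replicate 1 (edgeR adjusted p = 0.0738), untreated replicate 2 (0.156) or hemin replicate 2 (0.146). FDXR, the ferredoxin reductase, had the lowest value at -0.47 and was not called (edgeR adjusted p = 0.0699), and its value rested on the hemin-treated libraries, at -0.73 (edgeR adjusted p = 0.00354) without hemin replicate 1 and -0.24 (edgeR adjusted p = 0.358) without hemin replicate 2. Without untreated replicate 1 or 2 it was not called (edgeR adjusted p = 0.170 and 0.211).

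Heme use was followed in 4 genes, none of them called, from COX15 at -0.01 (edgeR adjusted p = 0.958, and from -0.09 to 0.07 with 1 library left out) to COX10 at 0.15 (edgeR adjusted p = 0.337). In heme breakdown and export, 5 of 7 genes were tested. BLVRB, a biliverdin reductase, had 689 and 731 counts without hemin and 509 and 524 with it, fell by 0.47 (SE 0.0711, edgeR adjusted p = 0.00377) and was called with any 1 library left out. HMOX2, the constitutive heme oxygenase, was at 0.15 (edgeR adjusted p = 0.349). HMOX1, the inducible heme oxygenase, had 0 and 1 counts without hemin and 2 and 1 with it, which is within the 3 counts that a count of 0 allows, so a change in HMOX1 was not detectable at this depth.

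**Figure D4:**
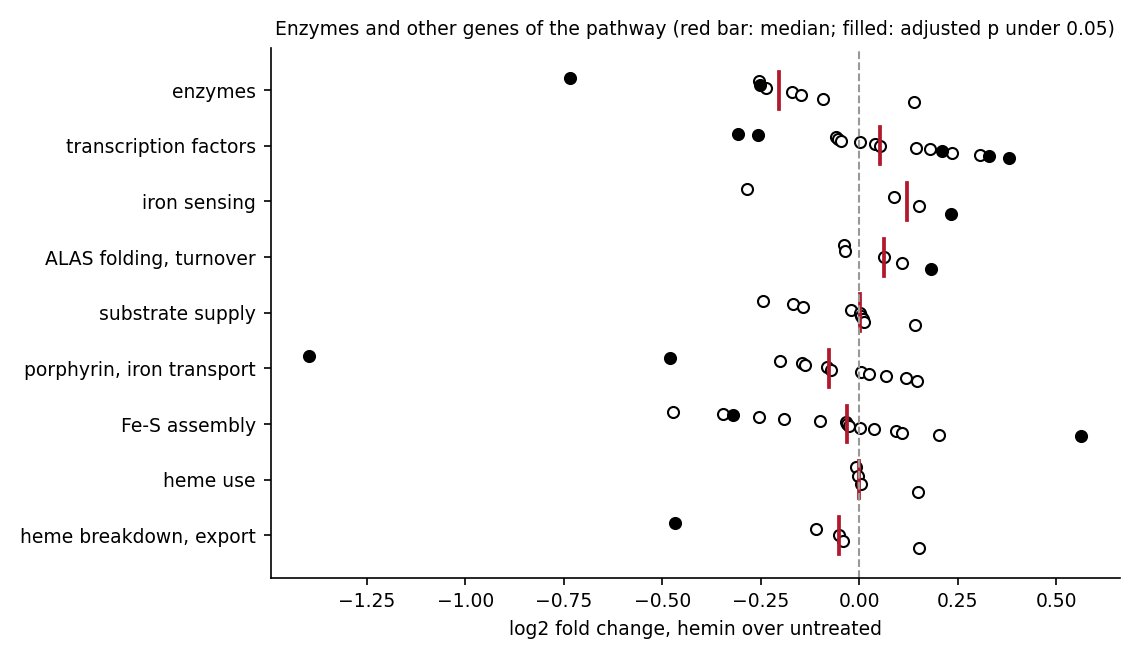
Log2 fold change (hemin over untreated, horizontal axis) of the 8 enzymes and of the tested genes of the 8 pathway lists, 1 row per list, with filled points for an adjusted p under 0.05 and a red bar for the median. The median of the enzymes is -0.20, the lists have medians from -0.08 to 0.12, and the point farthest to the left is ABCG2 at -1.40.

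The genes whose pattern over the 4 libraries was nearest to that of the called enzymes were found by the distance between centred log2 CPM, among genes with a mean TPM within 2-fold. For ALAS1, of 5043 genes compared, these were PROCR (distance 0.0429), ULBP1 (0.0523) and MIR223HG (0.0721), with log2 fold changes of -0.77, -0.75 and -0.79. For ALAS2, of 2718 genes compared, these were STX10 (0.0234), DYNLRB1 (0.0243) and SCFD1 (0.0299), with log2 fold changes of -0.28, -0.28 and -0.24. Within a distance of 0.1 there were 11 genes for ALAS1 and 61 for ALAS2. Genes chosen by this distance must have fold changes near that of the enzyme, so the likeness is no separate result.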

How the data were processed

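Poly(A)+ RNA of 2 untreated and 2 hemin-treated K562 samples was sequenced as 50-base reads. The authors trimmed the reads with Trimmomatic 0.39 and quantified them with RSEM 1.3.1. The deposited expected counts are not normalized. RSEM divided reads shared between genes, and the deposited posterior SD, a score here, describes that division. The authors' TPM values are scaled by effective length and depth, the authors' FPKM values likewise, and the TPM interval bounds, also a score, surround posterior means. The deposited mean TPM equal the means of the 2 libraries within 0.006 TPM. FPKM served only as an alternative for the ratio of ALAS2 to ALAS1.

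Here the counts were rounded, filtered by filterByExpr and given TMM factors, and edgeR 4.0.16 (R 4.3.3) fitted the quasi-likelihood model with condition only. Adjusted p-values (Benjamini-Hochberg) under 0.05 were called. SE is the log2 fold change divided by the square root of F. The script was tested on simulated data. The common dispersion was 0.001179. The mean chi-square per gene between the libraries of a group was 1.83 (untreated) and 2.24 (hemin), so they differed by more than counting noise. A count of 0 allows up to 3 counts, for counting error only. Gene positions came from GENCODE 44 on GRCh38, and promoter windows from RefSeq.

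The members and lists were chosen with earlier results of these data known, and 1 gene of the lists, left out after its values were seen, is not reported here. Named genes were the 8 enzymes, every called gene and both extremes of each list, the 3 nearest genes of each called enzyme, and HMOX1. Alternatives were RLE scaling, library size only, DESeq2 1.42.0 (default dispersion setting), no filter, at least 20 counts in a group and a replicate block. Further alternatives were posterior mean counts, limma 3.58.1 with trend on log2(TPM + 1) and log2(TPM + 0.1), and mitochondrial genes left out. Each library was also left out, where the lone library was assumed to vary like the others. For the ratio, posterior mean TPM, FPKM and expected counts per effective base were used as well.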

Additional observations from a re-analysis of the deposited data

How the results depend on the processing

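Over the 14 alternatives no log2 fold change of an enzyme changed sign. With library size only, 729 genes were called higher and 1358 lower (34.9% higher, against 49.5% with TMM, where 1012 and 1033 were called), and 3 enzymes were called lower, FECH besides ALAS1 and ALAS2. DESeq2 called 589 genes higher and 505 lower, 1 enzyme lower, and 3 genes of the pathway lists in each direction. Limma called 14 higher and 33 lower on log2(TPM + 1) and 15 and 34 on log2(TPM + 0.1), with 0 enzymes and 0 list genes in either direction. No filter on low counts called 1464 higher and 1321 lower, with 1 enzyme higher. Posterior mean counts gave 1347 and 1357.

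ALAS1 was -0.81 and -0.86 with limma at the pseudocounts 1 and 0.1. ALAS2 was -0.25 with DESeq2 and -0.21 with limma at both. UROD passed with no filter at 0.15. FECH passed with library size only (-0.28), no filter (-0.23), at least 20 counts (-0.24), the replicate block (-0.24) and posterior mean counts (-0.24). The causes were not tested.

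With 1 library left out, the genes called numbered 469 to 934 higher and 512 to 884 lower, the enzymes called lower 1 to 2, the list genes 2 to 4 higher and 2 to 7 lower, and the log2 fold change was -0.32 to -0.18 for ALAS2, -0.32 to -0.15 for FECH, 0.09 to 0.19 for UROD, -0.22 to -0.12 for UROS and 0.51 to 0.80 for the difference in the ratio of ALAS2 to ALAS1. That difference was 0.55 with posterior mean TPM. It was 0.65 with FPKM or counts per effective base, but these give the same ratio as TPM by construction, so they are no separate check. The lowest counts over all genes came without untreated replicate 1.

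Labels give both groups the replicate numbers 1 and 2, but same-numbered libraries did not deviate together (r = 0.0047 across 14458 genes, and -0.0234 across 7642 genes above 20 CPM; genes are not independent replicates). With the replicate block 855 genes were higher and 886 lower, and ALAS1 and ALAS2 kept their calls. With 2 libraries per group, whether FECH was called rested on the setting.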
